A study of Homo sapiens with 6 samples.

Results

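The genes described here are the zinc finger genes with a ZNF symbol that lie on chromosomes other than 19, X and Y. The rule took protein-coding rows of the count table whose symbol was ZNF followed by a digit, which gave 234 rows with 233 distinct symbols. Of these rows, 215 passed the filter on low counts and are called the members, out of 15615 genes tested and 29476 genes in the table. ZNF genes on chromosome 19, where most human clusters of these genes lie, were kept apart as a group of 155 tested genes. The libraries came from A549 cells, an established human lung adenocarcinoma line, transfected with siRNA by lipofection. The control group (siCtrl, 3 libraries) received a nontargeting siRNA, although its genotype label reads control plasmid. The knockdown group (siDDX17, 3 libraries) received 1 siRNA against DDX17, an RNA helicase of the DEAD-box family that acts in transcription and splicing. The comparison asks how the RNA of the ZNF genes differed when DDX17 was depleted. A harvest time of 48 h is given for RT-qPCR only, and the study describes its libraries as biological replicates.

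C2H2 zinc fingers are short folds held by a zinc ion between a pair of cysteines and a pair of histidines, and arrays of them read DNA sequence. Many ZNF proteins also carry a KRAB domain, which recruits TRIM28 and, through it, the histone methyltransferase SETDB1 to silence transposable elements and other targets. A SCAN domain lets some members pair with one another, and a number of ZNF proteins have neither domain and act in translation, ubiquitin transfer or ribosome assembly.

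The targeted gene was measured first. DDX17 stood at 177, 184 and 206 CPM (a gene's counts relative to the total of its library, scaled by TMM) in the siCtrl libraries and at 32.1, 30.8 and 30.4 CPM in the siDDX17 libraries. Its log2 fold change was -2.60 ± 0.07 (SE, n = 3 per group; edgeR adjusted p = 5.89e-11). DDX5, its close paralog, ranged from 380 to 418 CPM in siCtrl and from 355 to 384 CPM in siDDX17, so the groups overlapped. Totals ran from 30658136 to 39182371 reads per library, and reads of the members made up 0.198 to 0.212% of a siCtrl library and 0.229 to 0.236% of a siDDX17 library. The lowest member median was 139 reads in a library, so the precision of many members is set by small counts. The library siCtrl replicate 1 stood apart from the other 2 controls on the second principal component. Without it, 30 members rose and 1 fell past the limits given below, and their median was 0.21. Epithelial markers (KRT8, KRT18, KRT19, EPCAM and CDH1) summed to 2308 to 2624 FPKM, nearly all of it KRT8 and KRT18. EPCAM was low, at 0.34 to 0.48 FPKM in siCtrl and 1.09 to 1.14 FPKM in siDDX17, and CDH1 measured 2.91 to 3.35 FPKM. Leukocyte markers summed to 10.9 to 14.4 FPKM in siCtrl and 15.8 to 16.2 FPKM in siDDX17, nearly all of it CD14, while PTPRC, which defines leukocytes, was listed at 0 to 0.01. Fibroblast markers summed to 0.40 to 0.51 FPKM, and the endothelial, erythroid and alveolar type II sums were at most 0.19. The markers CD3E, COL1A2, HBB and SFTPA1 had no listed value and are not in these sums, so the erythroid sum is HBA1 alone. In bulk RNA, fewer cells of a kind and less RNA per cell cannot be told apart.

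More members were higher than lower in siDDX17. Past an adjusted p of 0.05 and a log2 fold change of 1, 27 of the 215 members (12.6%) rose, against 4.65% of all tested genes. Only 2 members (0.930%) fell past both limits, against 2.92% of all tested genes. At the adjusted p alone, 84 members rose (39.1%) and 36 fell (16.7%), beside 24.5% and 24.3% of all tested genes, and 95 were not called. The median log2 fold change of the members was 0.21, with quartiles at -0.17 and 0.65, where the median of all tested genes was 0.01. The members spread from -1.87 to 1.86, so the shift was in the balance of the set and not in every gene. In 97 members all 3 siDDX17 libraries lay above all 3 siCtrl libraries (45.1%, against 28.8% of all tested genes), and in 43 they lay below (20.0%, against 27.7%).

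The shift could be read in each library. Relative to each gene's siCtrl mean, the median over the 215 members was 0.03, -0.01 and -0.04 log2 units in siCtrl replicates 1 to 3. It was 0.26, 0.19 and 0.18 log2 units in siDDX17 replicates 1 to 3. All siDDX17 libraries lay above all siCtrl libraries, and the step between the groups was larger than the spread within either. Over 13164 tested protein-coding genes the same medians stayed between -0.01 and 0.01. With library size as the only scaling, the median of all tested genes moved from 0.01 to 0.13 and that of the members from 0.21 to 0.33. Under that scaling 37 members were called higher and 1 lower, while over all tested genes the calls split 1017 to 323 in place of 726 to 456.

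**Figure D1:**
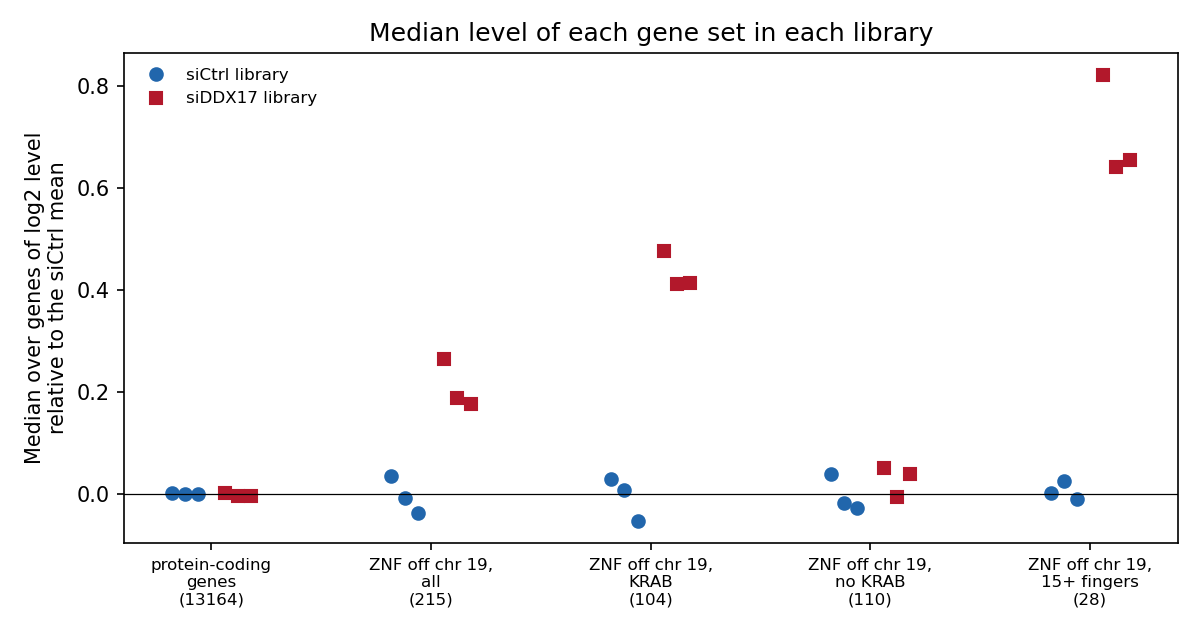
Median over the genes of each set of the log2 level relative to the gene's siCtrl mean, for each of the 6 libraries (circles siCtrl, squares siDDX17), with the number of genes in brackets. The siDDX17 libraries sat at 0.18 to 0.26 over all members and at 0.41 to 0.48 over those with a KRAB domain, while protein-coding genes as a whole stayed near 0.

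The members with the largest rise whose mean level was 1 log2 CPM or more were led by ZNF704, a transcription factor gene on chromosome 8. ZNF704 measured 1.59, 2.20 and 2.35 CPM in siCtrl and 6.98, 7.93 and 7.40 CPM in siDDX17. Its log2 fold change was 1.86 ± 0.15 (SE; edgeR adjusted p = 3.59e-07), and the lowest siDDX17 library stood well above the highest control. ZNF467, a factor known from adipocyte and bone cell differentiation, was the member of this group with the highest level. ZNF467 gave 8.89, 7.59 and 6.78 CPM in siCtrl against 20.0, 21.6 and 20.9 CPM in siDDX17 (log2 fold change 1.43 ± 0.10, adjusted p = 1.09e-07). ZNF618, which interacts with the chromatin protein UHRF2, gave 4.34, 4.37 and 5.36 CPM against 11.99, 12.9 and 12.6 CPM (1.41 ± 0.11, adjusted p = 2.30e-07). In both genes the 3 knockdown libraries formed a tight group above the controls. ZNF469, mutated in brittle cornea syndrome, rose from 2.10, 2.41 and 2.83 CPM to 6.36, 5.98 and 6.26 CPM (1.34 ± 0.14, adjusted p = 3.42e-06). None of these 4 genes had a KRAB or SCAN domain in any translated transcript.

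The other 6 of the 10 largest rises were KRAB genes, whose products are sequence-specific repressors. ZNF18, which holds both a KRAB and a SCAN domain, measured 3.13, 2.20 and 3.20 CPM in siCtrl and 8.54, 8.12 and 8.62 CPM in siDDX17 (1.55 ± 0.14, adjusted p = 8.77e-07). ZNF84, with 19 fingers, measured 2.42, 3.01 and 2.54 CPM against 8.61, 7.54 and 6.83 CPM (1.54 ± 0.14, adjusted p = 9.82e-07). ZNF251 measured 2.89, 2.80 and 3.23 CPM against 7.58, 8.50 and 8.23 CPM (1.44 ± 0.12, adjusted p = 4.54e-07). The groups did not overlap in any of the 3, and the siDDX17 means were 2.93, 2.90 and 2.71 times the siCtrl means by the fit. ZNF354A measured 3.46, 4.40 and 3.79 CPM against 11.4, 9.08 and 8.98 CPM (1.35 ± 0.13, adjusted p = 2.45e-06). Of its transcript's 50-base windows, 20.3% also occur in transcripts of other genes, ZNF354B among them, so reads could be split between copies. ZNF721, with 23 fingers, measured 2.01, 1.29 and 1.55 CPM against 4.51, 4.11 and 3.56 CPM (1.32 ± 0.18, adjusted p = 4.02e-05). ZNF267 measured 2.27, 2.06 and 2.24 CPM against 6.49, 4.64 and 5.06 CPM (1.30 ± 0.16, adjusted p = 1.60e-05). In both genes all knockdown libraries lay above the controls.

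**Figure D2:**
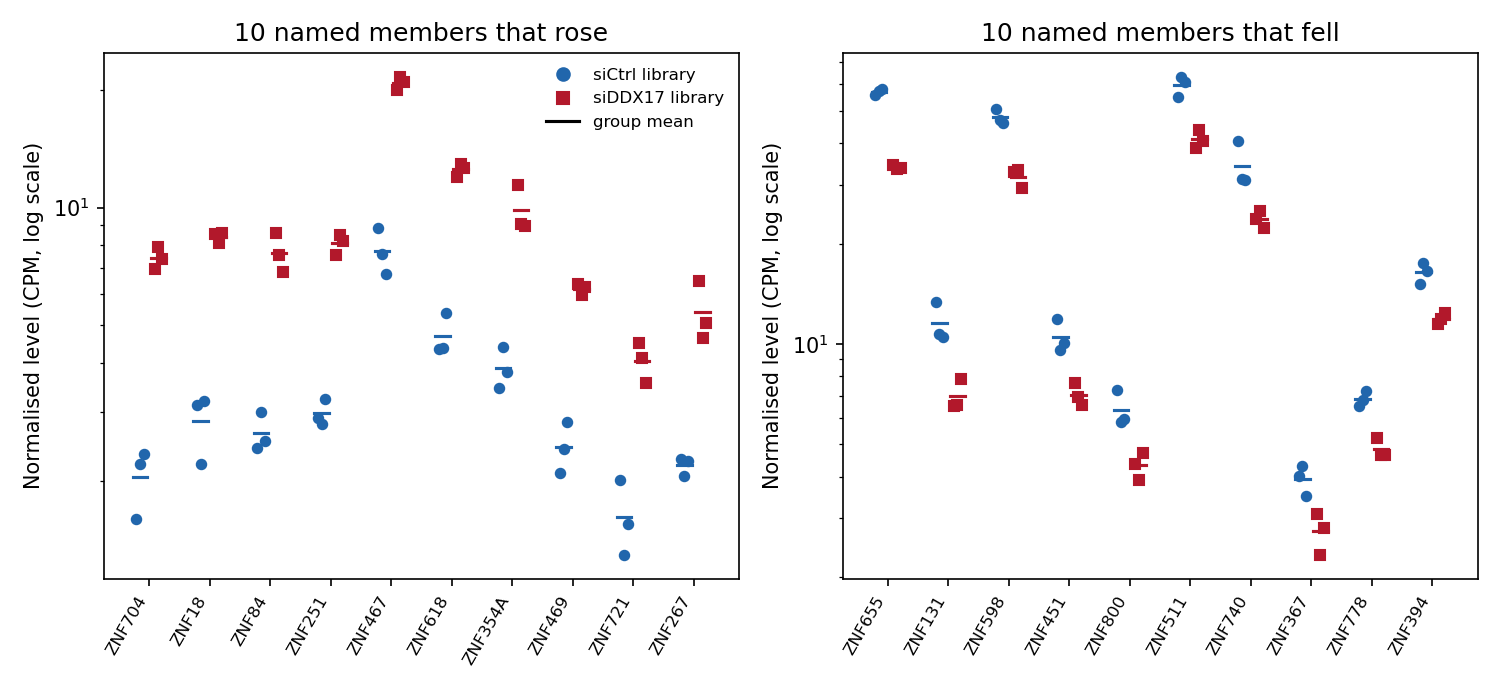
Level in each library (CPM, log scale) of the 10 members with the largest rise (left) and the 10 with the largest fall (right) among called members with separate groups and a mean level of 1 log2 CPM or more. Circles are siCtrl libraries, squares siDDX17 libraries and short lines the mean of each group of 3, and the left panel shows wider gaps between the groups than the right one.

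Another 5 risers with a mean level under 1 log2 CPM, taken by the lowest adjusted p, were all called past both limits. ZNF678 went from 1.21, 0.664 and 0.907 CPM to 2.78, 2.83 and 3.09 CPM (1.62 ± 0.20, adjusted p = 2.24e-05). ZNF624, with 20 fingers, went from 0.915, 0.979 and 0.827 CPM to 2.62, 1.87 and 2.44 CPM (1.35 ± 0.20). Both genes are low, and the siDDX17 values did not reach down to the control values in either gene. The log2 fold changes of ZNF594, ZNF184 and ZNF680 were 1.20 ± 0.22, 1.06 ± 0.22 and 1.03 ± 0.18. ZNF629 and ZNF664, named after their values were seen because they are the best measured of the remaining risers, went up from 9.47 to 9.79 CPM to 21.9 to 24.7 CPM and from 15.5 to 18.3 CPM to 34.6 to 38.6 CPM. The other members past both limits were ZNF33B, ZNF385C, ZNF141, ZNF232, ZNF589, ZNF138, ZNF140, ZNF248, ZNF117 and ZNF337, with log2 fold changes from 1.03 to 1.28. Among them ZNF385C and ZNF117 exceeded the level of the filter on low counts in all siDDX17 libraries but in only 1 siCtrl library.

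The 10 named falls were smaller in size than the 10 named rises, with log2 CPM from 1.73 to 5.63 against 1.38 to 3.67. ZNF655, whose product binds the signalling protein VAV1, measured 55.7, 57.2 and 58.3 CPM in siCtrl and 34.5, 33.4 and 33.6 CPM in siDDX17. Its log2 fold change was -0.75 ± 0.06 (adjusted p = 2.32e-07), with the groups far apart. ZNF131, a BTB-domain transcription factor, measured 13.3, 10.7 and 10.5 CPM against 6.51, 6.56 and 7.84 CPM (-0.72 ± 0.12, adjusted p = 0.000196). ZNF598, the ubiquitin ligase that marks collided ribosomes, measured 50.6, 47.0 and 45.9 CPM against 32.8, 33.2 and 29.3 CPM (-0.59 ± 0.07, adjusted p = 1.23e-05). All siDDX17 libraries were below all siCtrl libraries in these genes. ZNF451, a SUMO ligase, fell by 0.58 on the log2 scale (SE 0.11), and ZNF800, ZNF740, ZNF367, ZNF778 and ZNF394 fell by 0.46 to 0.55. ZNF511 measured 55.0, 63.2 and 61.2 CPM against 38.8, 43.8 and 40.7 CPM (-0.54 ± 0.07, adjusted p = 2.71e-05). The annotation holds a readthrough transcript ZNF511-PRAP1, and 44.3% of the windows of ZNF511 are shared with other genes. The 2 members that fell past both limits, named after their values were seen, were both close to the detection limit. ZNF385D measured 0.325, 0.629 and 0.534 CPM against 0.104, 0.219 and 0.0779 CPM (-1.87 ± 0.45, adjusted p = 0.00381). It exceeded the level of the filter on low counts in the siCtrl libraries only, so it entered the test through the group where it was high. ZNF519 measured 0.768, 0.559 and 0.721 CPM against 0.285, 0.274 and 0.441 CPM (-1.03 ± 0.31, adjusted p = 0.0140).

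Levels between genes were compared per length, in the deposited FPKM. The median member had a mean of 1.15 FPKM, and the highest mean over all 6 libraries was that of ZNF622, a factor of large ribosomal subunit maturation, at 17.5 ± 0.69 FPKM in siCtrl and 23.9 ± 0.46 FPKM in siDDX17 (SD, n = 3). ZNF511 followed at 22.2 ± 1.13 and 16.7 ± 0.91 FPKM, and ZNF593, also a ribosome assembly factor, at 19.05 ± 1.40 and 16.6 ± 0.72 FPKM. In siCtrl alone ZNF511 and ZNF593 stood above ZNF622. The mean over all libraries put ZNF622 at 20.7, ZNF511 at 19.4 and ZNF593 at 17.8 FPKM, and the ranges of these 3 genes over the 6 libraries overlap. ZNF219, ZNF768 and ZNF703 followed at 15.7, 14.1 and 11.9 FPKM. In the count fit ZNF622, ZNF219 and ZNF703 rose by 0.32 ± 0.06, 0.23 ± 0.06 and 0.27 ± 0.07 log2 units (adjusted p = 0.000598, 0.00756 and 0.00968). ZNF593 fell by 0.33 on the log2 scale (SE 0.08, adjusted p = 0.00310). ZNF768, which binds a class of interspersed repeats, had a log2 fold change of -0.08 ± 0.06 (adjusted p = 0.308) with overlapping groups.

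The members' levels were set beside those of other genes. Tested protein-coding genes were divided at 2.97 and 4.95 mean log2 CPM into 3 equal bins, and 137 members fell in the lowest, 61 in the middle and 17 in the highest. In the lowest bin 23 of 137 members rose past both limits (16.8%), where 319 of 4113 protein-coding genes without a ZNF symbol did (7.76%). At the adjusted p alone, 61 of these members rose (44.5%) and 13 fell (9.49%), with a median of 0.40, beside 24.5% and 15.9% of those other genes. In the middle bin 4 of 61 rose past both limits (6.56%), again a larger share than that of the genes without a ZNF symbol (2.67% of 4305). At the adjusted p alone 18 rose (29.5%) and 15 fell (24.6%) there, near the 27.5% and 29.5% of those genes, and the median was -0.06. In the highest bin no member passed the fold limit, 5 of 17 rose and 8 fell beside 23.8% and 34.8% of those genes, and the median was -0.08. The medians of all tested protein-coding genes in these bins were 0.11, -0.02 and -0.06, so the median of the members lay farther from the background in the lowest bin than in the other 2. ZNF664, ZNF467, ZNF629 and ZNF337 were the 4 middle-bin members past both limits.

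**Figure D3:**
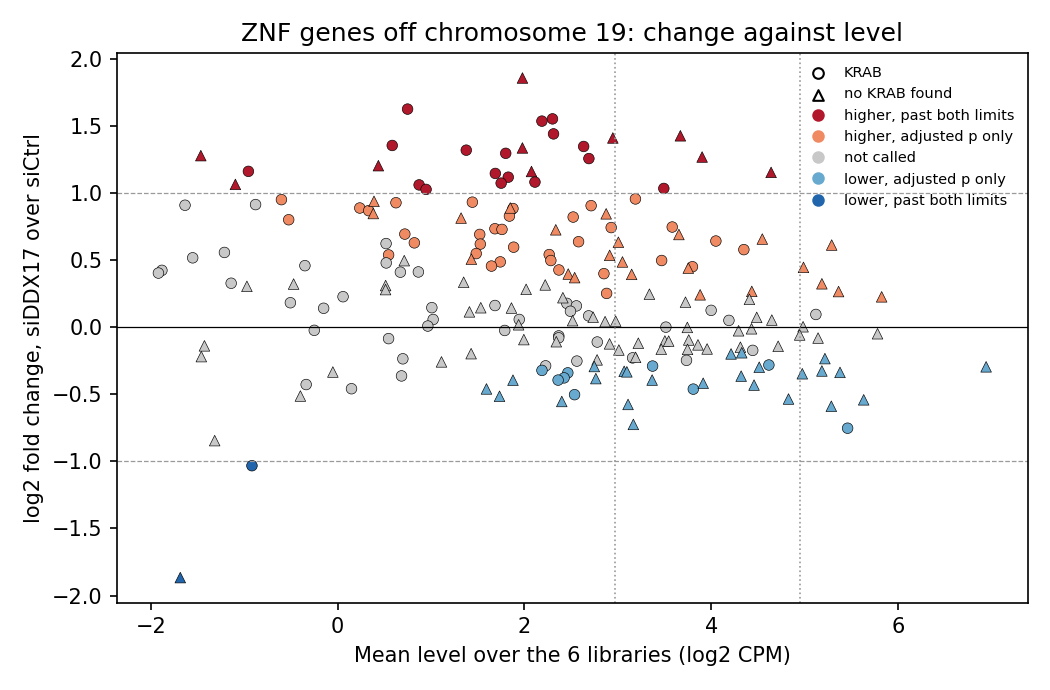
log2 fold change of each of the 215 members against its mean level over the 6 libraries (log2 CPM), circles for genes with a KRAB domain and triangles for those in which none was found, coloured by call. Dotted lines mark the bin limits at 2.97 and 4.95, dashed lines the fold limit, and 23 of the 27 members past both limits on the upper side lie left of the first dotted line.

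By chromosome, the members were most numerous on chromosomes 16 (29), 7 (27) and 1 (18), and none lay on 13 or 21. The protein-coding medians of single chromosomes stayed between -0.05 and 0.07, so the chromosomes differed little as wholes. Members on chromosomes 5, 8, 9, 10, 12, 17 and 20 had medians of 0.58, 0.51, 0.48, 0.42, 0.57, 0.50 and 0.66. On chromosome 10, 10 of 16 members rose at the adjusted p and 1 fell, beside 29.4% rising and 26.2% falling among its protein-coding genes. On chromosome 17, 5 of 11 members rose past both limits (ZNF18, ZNF624, ZNF385C, ZNF594 and ZNF232), beside 4.81% of its protein-coding genes. Of these, ZNF385C passed the filter through its siDDX17 libraries, with 10, 2 and 9 reads in siCtrl and 15, 25 and 18 in siDDX17. The largest sets lay closer to 0, with medians of -0.08 on chromosome 16 (9 rose, 7 fell), 0.16 on chromosome 7 (10 rose, 4 fell) and -0.15 on chromosome 1 (3 rose, 6 fell). All 6 members on chromosome 2 were called, with 2 higher and 4 lower (ZNF638, ZNF142, ZNF2 and ZNF513) and a median of -0.28. These counts are small, and no test between chromosomes was made.

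**Figure D4:**
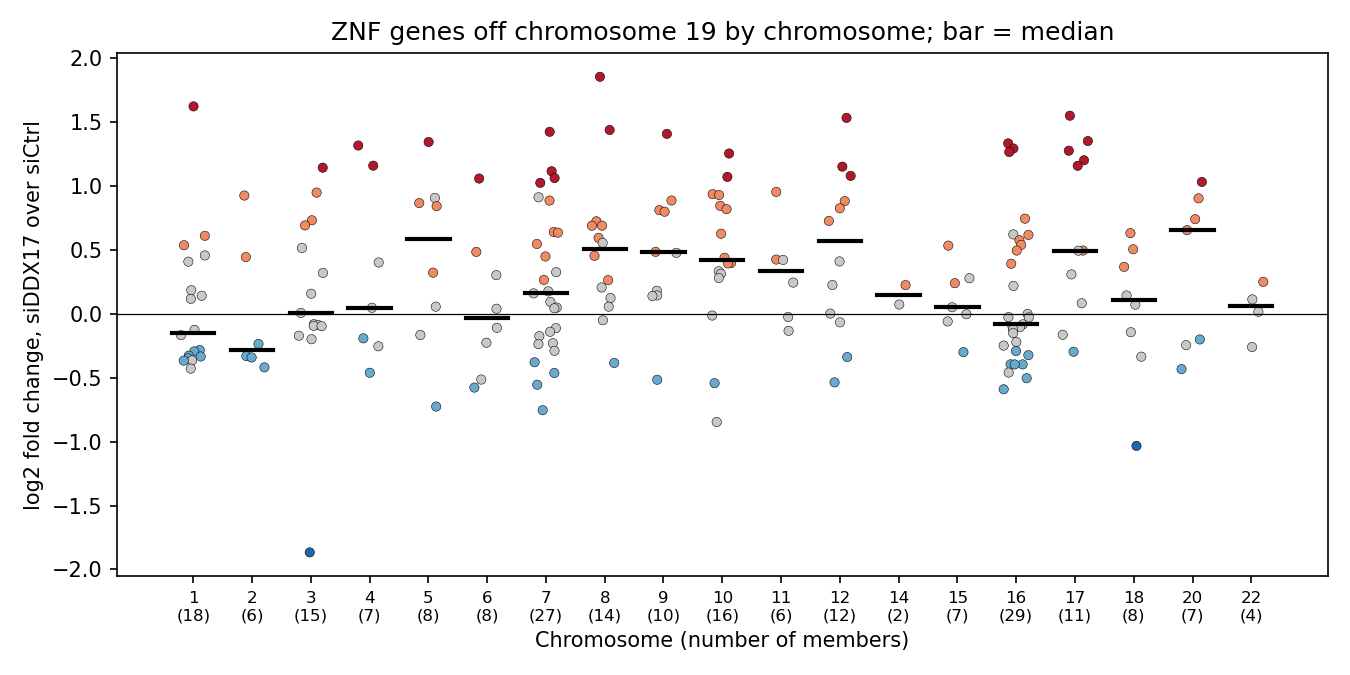
log2 fold change of each member by chromosome, with the number of members in brackets and a bar at the median; red and orange points were called higher, blue points lower and grey points not called. Medians on chromosomes 5, 8, 9, 10, 12, 17 and 20 lie at 0.42 or above, and those on chromosomes 1, 2 and 16 lie below 0.

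ZNF genes arise by local duplication, so neighbours were set side by side. Rows of the rule, whether or not they passed the filter, were joined where each started within 500 kb of the one before. Groups with at least 4 members were kept, and the bounds below are those of all joined rows. This gave 11 groups. On chromosome 12, between 132918306 and 133214832 (GRCh38), ZNF605, ZNF26, ZNF84, ZNF140 and ZNF268 rose, with log2 fold changes from 0.73 to 1.54. Their neighbours ZNF891 and ZNF10, the gene whose KRAB domain is used in CRISPR interference, had 0.41 and 0.23 and were not called. On chromosome 10, all 4 members between 37776526 and 38150293 (ZNF248, ZNF25, ZNF33A and ZNF37A) and all 4 between 43436841 and 43648881 (ZNF487, ZNF239, ZNF485 and ZNF32) rose, with medians of 0.88 and 0.74. On chromosome 7, between 64307459 and 65401136, ZNF680, ZNF107, ZNF138, ZNF117 and ZNF92 rose and ZNF273 was not called (0.33), with a median of 0.96. In this group ZNF117 and ZNF273 exceeded the filter level in all siDDX17 libraries but not in all siCtrl libraries. ZNF117 had 7, 7 and 15 reads in siCtrl and 23 in each siDDX17 library. Near the end of chromosome 8, from 144720907, ZNF251, ZNF34, ZNF517, ZNF250 and ZNF16 rose, while ZNF7 stood at 0.13 and was not called. On chromosome 16, between 3112560 and 3443504, ZNF205, ZNF263, ZNF75A and ZNF174 rose and the other 3 of 7 were not called, with a median of 0.39. On chromosome 4, between 53286 and 499156, ZNF141 and ZNF721 rose past both limits and ZNF595 and ZNF718 were not called, with a median of 0.78. The remaining groups, small and large, held fewer rises for their size. Of 5 members on chromosome 1 between 246945547 and 247331867, 1 rose and 1 fell, with a median of 0.41. Of 5 on chromosome 3 between 44431705 and 44737083, 1 rose and none fell, with a median of 0.32. Of 10 neighbours on chromosome 7 between 149069641 and 149867479, 9 of them with a KRAB domain, only ZNF467 was called, and the median of the 10 was -0.03. Of 13 on chromosome 16 between 30378106 and 31917357, ZNF764, ZNF629 and ZNF267 rose, ZNF747 and ZNF688 fell, and the median was -0.08. Neighbours can share sequence and chromatin, the latter not measured here, and were not taken as independent of one another.

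The members were then divided by domain. A KRAB domain was found in 104 of the 214 members that matched the annotation, of which 12 also had SCAN. Among KRAB members 51 rose at the adjusted p (49.0%) and 10 fell, with 17 rises and 1 fall past both limits and a median of 0.47. Among the 110 without KRAB 33 rose (30%) and 26 fell, with 10 rises and 1 fall past both limits and a median of 0.00. The library medians of the KRAB members were 0.03, 0.01 and -0.05 in siCtrl and 0.48, 0.41 and 0.42 in siDDX17. Those of the members without KRAB were 0.04, -0.02 and -0.03 in siCtrl and 0.05, -0.01 and 0.04 in siDDX17, so the groups overlapped. KRAB members also stood lower, with a median of 1.8 against 3.1 log2 CPM. Within the lowest level bin, 44 of 86 KRAB members rose and 6 fell (median 0.51), and 17 of 50 without KRAB rose and 7 fell (median 0.18). The 12 members with both KRAB and SCAN had 5 rises and 3 falls (median 0.03), and the 6 with SCAN alone had 3 rises and no fall (median 0.22).

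The members were also divided by the number of fingers in the encoded protein. Members with 0 to 2 fingers (27) had 6 rises and 10 falls and a median of -0.16. Those with 3 to 6 (50), 7 to 10 (65) and 11 to 14 fingers (44) had medians of 0.03, 0.15 and 0.48. Of the 28 with 15 or more fingers, 21 rose (75%), 8 of them past both limits, 1 fell, and the median was 0.73. Their library medians were 0.00, 0.02 and -0.01 in siCtrl and 0.82, 0.64 and 0.65 in siDDX17, with a clear gap. Of the 19 that also had KRAB, 16 rose and none fell (median 0.80). Over the 5 bins the medians of the KRAB members were 0.07, -0.14, 0.41, 0.58 and 0.80, the first from 4 genes only. Members without KRAB gave -0.19, 0.15, -0.09, 0.09 and 0.51, with no steady order. With 3 to 6 fingers the KRAB members stood lower (3 of 16 rose and 5 fell) than those without KRAB (12 of 34 rose and 4 fell). Of the 9 with 15 or more fingers and no KRAB found, 5 rose and 1 fell. By coding length, in bins divided at 1038 and 1866 bases, the medians of the members were -0.14, 0.23 and 0.23 and those of protein-coding genes without a ZNF symbol -0.06, -0.004 and 0.05. The part of coding length in the order by fingers was not tested.

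**Figure D5:**
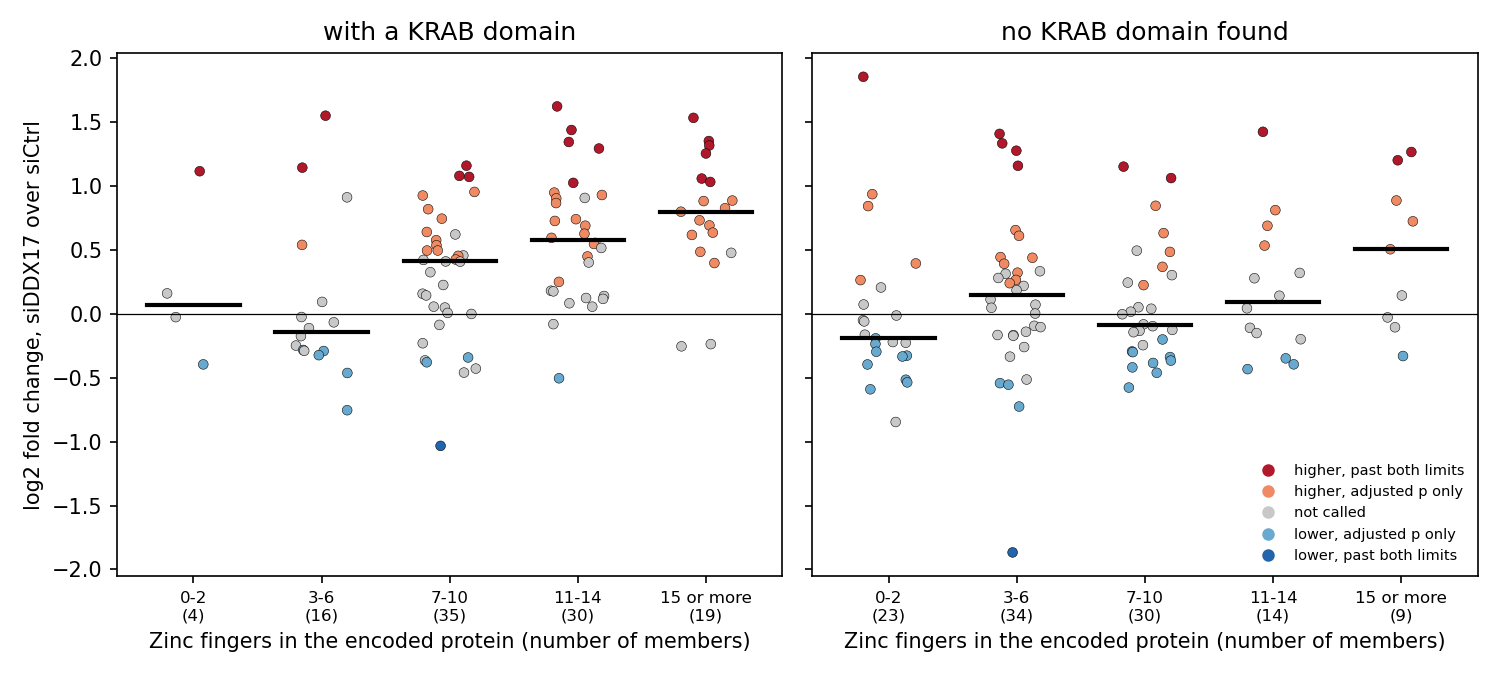
log2 fold change of the members by the number of C2H2 fingers in the encoded protein, with a KRAB domain (left) and without one found (right); brackets give the number of members, bars the medians and colours the call. The KRAB members with 15 or more fingers have a median of 0.80, and 16 of these 19 were called higher.

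The transcripts of the members had a median GC content of 45.5%, and those of KRAB members 42.5%, where the median protein-coding transcript had 48.8%. Of the 95 members in the protein-coding bin of lowest GC (up to 43.9%), 41 rose and 12 fell, with a median of 0.40. Of 4170 protein-coding genes without a ZNF symbol in that bin, 24.5% rose, 23.2% fell and the median was 0.02. The middle bin gave a similar share, with 26 of 62 members rising (41.9%) and 10 falling (median 0.22). Among 4243 other genes of the middle bin 26.4% rose and 29.3% fell (median -0.03). In the highest GC bin (over 54.5%), 17 of 57 members rose (29.8%) and 14 fell (24.6%), with a median of -0.03, near the 24.98% and 28.5% of 4275 other genes (median -0.02). The 20 KRAB members in that bin had 6 rises, 4 falls, none past both limits and a median of 0.05. Restricted to genes in the lowest bin of both GC and level, 31 of 53 KRAB members rose and 1 fell (median 0.63). There, 5 of 21 members without KRAB rose and 2 fell (median 0.22). Of 1313 other protein-coding genes lowest in both, 23.2% rose and 16.0% fell (median 0.09). In the lowest level bin with GC above the lowest bin, 25 of 62 members rose (40.3%) and 10 fell (median 0.18). Of 2732 other protein-coding genes there, 25.1% rose (median 0.08) and 16.0% fell, near the 16.1% of the members that fell.

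A sequence of the control siRNA recurred in the finger-coding parts of members. The 7 bases TCGGAGA pair with bases 2 to 8 of the sense strand of the nontargeting siRNA, and in some fingers they code for the stretch between the zinc-binding histidines. The sites below are shown because they lie in coding sequence of members that were lower in siCtrl than in siDDX17. They are GENCODE 44 transcript sequences, 5′ to 3′, with 11 bases on each side and the match to the siRNA in capitals.
ZNF267: gttattcagcaTCGGAGAattcatactgg
ZNF267, downstream: ctcactacacaTCGGAGAagacatactgg
ZNF594: cttattcaacaTCGGAGAattcatagtgg
ZNF184: cttactcaacaTCGGAGAattcacacgag
ZNF197: cttataaaccaTCGGAGAatccacactgg
In GRCh38 these lie at chr16:31916104-31916132 and chr16:31916272-31916300 (plus strand), chr17:5182722-5182750 and chr6:27452066-27452094 (minus strand), and chr3:44642283-44642311 (plus strand). All are in coding exons.

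The 7 bases were searched on the transcript strand of 1 canonical transcript a gene, with overlaps allowed. They occurred in the coding sequence of 26 of 214 members (12.1%) and of 1075 of 13068 protein-coding genes (8.23%). Of the 33 coding sites in members, 18 lay in a finger and 15 of these between the histidines, as in the sequences printed above. Among the 26 members 16 rose (61.5%), 9 of them past both limits, and 4 fell (15.4%), with a median of 0.58. Among all protein-coding genes with a coding site the median was 0.19 and 9.77% rose past both limits, against 3.35% of the 11587 with no site in the transcript. At the adjusted p alone 43.3% of the genes with a coding site rose and 16.5% fell, against 23.6% and 27.9% of those with no site. The 180 members with no site anywhere had 65 rises (36.1%) and 30 falls, 16 rises past both limits (8.89%), and a median of 0.15. For KRAB members with no site (91), 42 rose and 9 fell, with a median of 0.41. The part of these sites in the results was not tested. Only 1 strand of each siRNA was searched, the sense strand of the control siRNA and the antisense strand of the DDX17 siRNA. The other strand of each was not searched, so the counts do not compare the siRNAs strand for strand. The 7 bases TATTGCT, which pair with the antisense strand of the DDX17 siRNA, occurred in the 3′ UTR of 38 members (17.8%), of which 10 rose (26.3%) and 9 fell (23.7%), with a median of -0.003. Of all protein-coding genes 14.4% had such a site, and 24.5% of these rose and 28.3% fell, shares near those of the members. In coding sequence TATTGCT occurred in 12 members (5.61%), of which 6 rose and 1 fell (median 0.29). Of 1000 protein-coding genes with such a coding site, 24.4% rose and 26.4% fell (median -0.02). In the 3′ UTR, TCGGAGA occurred in 4 members, of which 2 rose and 1 fell. Of 274 protein-coding genes with TCGGAGA there, 48.2% rose and 12.4% fell at the adjusted p alone (median 0.23). Past both limits 17.5% of these 274 genes rose and 1.46% fell.

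Genes that work with KRAB proteins were described from a list of 32 corepressor and heterochromatin genes, of which 31 were tested. None passed the fold limit. At the adjusted p alone 6 rose (19.4%), 9 fell (29.0%) and 16 were not called, near the 24.5% and 24.3% of all tested genes, with a median of -0.02. Of the 9 falls, ATF7IP2, MORC2, EHMT2 and CBX5 were not called under 3 to 6 of the alternative settings each. TRIM28, the scaffold that KRAB domains bind, measured 473, 513 and 516 CPM in siCtrl and 392, 421 and 396 CPM in siDDX17 (-0.31 ± 0.06, adjusted p = 0.000641). SETDB1, the methyltransferase it recruits, ranged from 23.4 to 26.7 CPM in siCtrl and from 23.4 to 25.1 CPM in siDDX17 (-0.06 ± 0.07, adjusted p = 0.504). HDAC1, a histone deacetylase, rose from 42.0, 45.7 and 52.1 CPM to 86.9, 89.6 and 84.0 CPM (0.90 ± 0.07, adjusted p = 5.01e-07). FAM208A (TASOR), a subunit of the HUSH silencing complex, rose by 0.67 ± 0.09, and SUV39H1 and UHRF1, which write and read repressive chromatin, fell by 0.69 and 0.57 on the log2 scale.

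ZNF genes on chromosome 19 gave the nearest comparison. Of those 155 genes 29 rose past both limits and none fell, 73 rose (47.1%) and 13 fell at the adjusted p alone, and the median was 0.44. With a KRAB domain, 66 of 129 on chromosome 19 rose (51.2%; median 0.53), beside 51 of 104 members (49.0%; median 0.47). Without one, 7 of 26 on chromosome 19 rose (median -0.08), beside 33 of 110 members (median 0.00). KRAB genes made up 104 of 214 annotated members and 129 of 155 genes on chromosome 19. The difference between the chromosome 19 set and the members was not tested.

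Of the 234 rows of the rule, 19 did not pass the filter, which asked for about 0.278 CPM in at least 3 libraries. Of the 215 that passed, 203 exceeded this level in all 6 libraries, and 5 in all siDDX17 libraries but not all siCtrl libraries. Only 1, ZNF385D, did so in all siCtrl libraries but not all siDDX17 libraries, and 6 in another set of libraries. Among the 203, 25 rose and 1 fell past both limits, and the median was 0.18. Just inside the filter lay ZNF718, with 7, 2 and 11 reads in siCtrl and 11, 6 and 13 in siDDX17, and just outside lay ZNF483, with 3, 5 and 14 reads against 7, 15 and 10. Reads that fit more than 1 copy bear on 21 members with at least 10% shared windows. Without those members and the 1 that could not be matched, 26 of 193 rose and 2 fell past both limits, and the median was 0.16. An exon overlap with another gene was annotated for 108 members, 78 of them with an antisense gene, and the 106 without such overlap gave 14 rises, 1 fall and a median of 0.18.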

How the data were processed

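Polyadenylated RNA of 6 A549 libraries (3 siCtrl, 3 siDDX17; groups from the sample titles) was sequenced with a strand-specific dUTP kit. The authors aligned reads to GRCh38 with TopHat2, allowing up to 4 mismatches, and deposited raw read counts per gene and FPKM values per gene. The counting program, its strand setting and the annotation version are not given in the sources used here.

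Counts were tested with edgeR 4.0.16 in R 4.3.3 (filterByExpr on the 2 groups, TMM scaling, quasi-likelihood test, group as the only term), with Benjamini-Hochberg adjustment over all 15615 tested genes. A gene was called when its adjusted p was under 0.05 and its log2 fold change was beyond 1 in either direction, or at the adjusted p alone where so stated. CPM are TMM-scaled. Levels between genes use FPKM. With 3 against 3 libraries an exact permutation test of 1 gene cannot go below p = 0.1, so none was used. The fit was tested on simulated counts for 15615 genes, where 189 of 200 genes changed by 1.5 log2 units were recovered and 2 unchanged genes were called. The simulated counts were negative binomial, with equal numbers of genes raised and lowered. Far fewer genes changed than were called in the data, so the simulation cannot judge the scaling or the error rate there. Alternatives were DESeq2 1.42.0, limma 3.58.1 on log2(FPKM + 1) and log2(FPKM + 0.1), other scalings, filters and call limits, a replicate block, and leaving out each library. Each SE is that of the edgeR fit and each SD is over the 3 libraries of a group.

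Genes were matched by Ensembl ID to GENCODE 44, which held 214 of 215 members. Fingers were counted in the canonical protein as a pair of cysteines 2 to 4 residues apart, 12 residues, and a pair of histidines 3 to 5 residues apart. KRAB and SCAN domains were searched with HMMER 3.4 (E-value up to 0.001) in all translated transcripts. The profiles were built from proteins of any gene searched that matched a sequence pattern, and were rebuilt from the hits. A divergent domain can be missed. Exon overlaps came from bedtools 2.31.1. Level, GC and length bins divide tested protein-coding genes into 3 equal bins.

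Members in the text are the 10 largest rises and 10 largest falls among members past the adjusted p with separate groups and a mean level of 1 log2 CPM or more, the 6 highest in FPKM, up to 5 called members under 1 log2 CPM by adjusted p, and those at the edge of the filter. DDX17, DDX5 and called corepressor genes were also taken. The members, lists and finger bins were chosen with earlier results of these data known. List counts and medians are descriptions with no test.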

Additional observations from a re-analysis of the deposited data

How the results depend on the processing

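The balance towards higher members kept its direction under every alternative run, and no called member was called the other way in any of them. Leaving out 1 library at a time gave 24 to 30 members higher and 1 to 2 lower past both limits, with medians of 0.18 to 0.23, and 715 to 799 genes higher and 441 to 477 lower in all, with medians of all genes from 0.00079 to 0.0064. In all 6 of these fits 18 of the 27 rises past both limits were kept, as were 68 of the 84 rises and 19 of the 36 falls at the adjusted p alone. Without siCtrl replicate 1 the counts were 30 and 1. The count of lower members fell to 1 without siCtrl replicate 1, siDDX17 replicate 1 or siDDX17 replicate 2. Library size alone gave 1 member lower, medians of 0.33 (members) and 0.13 (all genes), and kept 20 of the 36 falls. RLE scaling, upper quartile scaling, DESeq2 and no filter on low counts put the median of all genes at -0.0023, 0.036, -0.0022 and 0.012. A minimum of 10 counts in every library left 1 member lower. limma on log2(FPKM + 1), a scale that shrinks the changes of low genes, called 4 members higher and 0 lower past both limits (160 and 89 of all genes) with medians of 0.11 and 0.068. On log2(FPKM + 0.1) it called 22 members higher, 0 lower and 210 genes lower in all, with medians of 0.26 and 0.12. At an unadjusted p under 0.05, 20 members were lower by limma on either scale, 40 by edgeR and 38 by DESeq2. The limits of the study's methods (p under 0.01, fold over 1.5) gave 57 and 5 members and 1713 and 1254 genes, and the adjusted p alone gave 84 and 36 members and 3819 and 3798 genes. Members with under 10% shared windows had a median of 0.16, and those with no exon overlap gave 14 higher and 1 lower, a smaller set; both were chosen after seeing the data. The log2 fold changes of ZNF768 and DDX5, not called, turned positive with library size alone (0.041 and 0.014), on log2(FPKM + 1) (0.045 and 0.0186) and on log2(FPKM + 0.1) (0.048 and 0.0187), and without siCtrl replicate 1 DDX5 was called lower (-0.16). ZNF367 was not called without siDDX17 replicate 2 (-0.41) or on log2(FPKM + 0.1), nor were ZNF703 without siDDX17 replicate 2 (0.22) and ZNF778 on log2(FPKM + 0.1). The other 16 lost calls of single genes were those of ATF7IP2 (6 settings), EHMT2 (4), CBX5 (3) and MORC2 (3), with the direction kept. The cause was not tested. With the replicate number as a block, 27 members were higher and 2 lower; the numbers did not pair the libraries, since same-numbered deviations correlated at 0.007, 0.041 and -0.056.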

Other observations

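Other zinc finger genes gave smaller sets. The 62 tested ZBTB, ZSCAN, ZKSCAN and ZFP genes off chromosomes 19, X and Y belong to the same broad C2H2 family. Of these, 15 rose (24.2%) and 10 fell (16.1%) at the adjusted p of the edgeR fit, and the median log2 fold change was 0.02. Past both limits 7 rose (11.3%) and 0 fell, a share of rises near the 12.6% of the members and above the 4.65% of all tested genes. Of 11 tested ZNF genes on chromosome X or Y, 3 rose (27.3%) and 2 fell, all 3 rises being past both limits. Their median was 0.07, with a range from -0.82 to 1.86.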
